A study of Mus musculus with 60 samples.

Results

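The genes described here are those whose early response to TGFβ1 differed between PBRM1 knockout and control cells of NMuMG, a mouse mammary gland epithelial line. They were found in 12 of the study's 60 RNA sequencing libraries, 3 in each of 4 groups. The groups were control cells and PBRM1 knockout cells (labelled sgCT and sgPBRM1 in the count table, Control and PBRM1 KO in the titles), each before treatment (0 h) and after 24 h of TGFβ1 at 5 ng/ml. All 4 groups came from the same line, and the sources used here do not say whether the knockout cells are 1 clone or a pool. The measure is the interaction, which is the log2 TGFβ1 change at 24 h in knockout cells minus that in control cells. A gene is called higher where this difference is above 0 at an adjusted p under 0.05, and lower where it is below 0. Of 14345 genes tested, 2637 (18.4%) were called, 1220 of them higher (8.5%) and 1417 lower (9.88%).

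TGFβ1 binds a pair of receptor kinases that phosphorylate SMAD2 and SMAD3, and these enter the nucleus with SMAD4 and switch genes on and off. In mammary epithelial cells the response slows division, takes down cell junctions and keratins, and raises matrix, actin and mesenchymal genes, a change known as the epithelial to mesenchymal transition (EMT). PBRM1 (polybromo) is a bromodomain protein found in PBAF, one of the SWI/SNF complexes, which move nucleosomes at regulatory DNA.

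Library totals in the NMuMG knockout experiment were 16.2 to 21.9 M counts. Levels are TMM-scaled CPM (counts per 1 M, corrected for composition), and adjusted p-values are from edgeR's quasi-likelihood test with Benjamini-Hochberg adjustment over all genes tested. The labels call the 3 libraries of a group biological replicates. The p-values measure the spread between libraries within groups, estimated over all 24 libraries of this experiment. They do not measure a spread between separately made knockout cells. Luminal keratins were abundant, with Krt8 means of 4905 to 6022 CPM in control, while Epcam stayed at or under 0.57 CPM in each group mean. Other listed luminal markers were low. Foxa1 and Gata3 reached 8.08 and 4.25 CPM in their highest library. Elf5 reached 0.30 CPM, Prlr, Esr1 and Pgr 0.09, 0.06 and 0.05 CPM, and Kit was at 0. Fibroblast markers summed to 5.18 to 5.66 CPM at 0 h and 86.7 to 96.2 at 24 h in control, and to 6.25 to 8.67 and 133 to 139 in knockout. Nearly all of the 24 h sum was Col1a1, and Lum was at 0 in all 12 libraries. Endothelial and basal markers stayed at or under 3.24 CPM in sum. Leukocyte markers, mostly Csf1r and Cd68, summed to 10.8 to 15.4 CPM in control and 5.10 to 6.42 in knockout, with Tyrobp at 0. In the interaction, edgeR called 1 of 5 fibroblast markers (Col1a1) and 1 of 2 leukocyte markers (Cd68) lower and 0 higher, 0 of 2 endothelial and 0 of 2 basal markers, and among 7 luminal markers 1 higher and 3 lower. DESeq2 gave the same counts, and at an unadjusted p under 0.05 another fibroblast marker was higher and another luminal marker lower. Over all genes tested, edgeR called 8.5% higher and 9.88% lower. Col1a1 lost its call in 5 of 19 alternative settings, each with 1 library left out. The part of these markers in the results was not tested, and bulk RNA cannot tell fewer cells of a type from less RNA per cell.

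Pbrm1 mRNA itself was reduced little by the knockout. Control libraries held 115, 116 and 115 CPM at 0 h and 108, 103 and 104 CPM at 24 h, and knockout libraries held 99.2, 93.3 and 99.1 CPM at 0 h and 100.0, 99.1 and 98.5 CPM at 24 h. The groups did not overlap at either time, but the transcript was still abundant in knockout cells. The sources used here do not give the guide's site, and counts over the whole gene do not read out the protein. Its interaction of 0.17 ± 0.06 (SE, adjusted p = 0.0351) missed the threshold in 10 of 19 alternative settings.

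Knockout did not remove the TGFβ1 response but changed its size at many genes. At 24 h, 8524 genes (59.4%) had changed in control cells and 8569 (59.7%) in knockout cells. In control, 4292 rose (29.9%) and 4232 fell (29.5%). In knockout, 4304 rose (30%) and 4265 fell (29.7%). With scaling by library totals alone the median gene moved by -0.08 in control and -0.10 in knockout, and the split became 3463 higher and 5171 lower in control and 3261 and 5579 in knockout. Of 6950 genes that passed in both genotypes, 6813 moved the same way and 137 moved in opposite directions. Genes induced at least 2-fold numbered 934 in control (6.51%) and 984 in knockout (6.86%), and the 723 they shared made up 77.4% and 73.5% of each. Genes repressed at least 2-fold numbered 998 in control (6.96%) and 1145 in knockout (7.98%), and the 775 shared made up 77.7% and 67.7%. Large interactions were fewer, with 80 genes at least 2-fold higher (0.558%) and 188 at least 2-fold lower (1.31%). With scaling by library totals alone, the calls were 949 higher and 1718 lower, which is 35.6% higher against 46.3% with TMM.

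**Figure D1:**
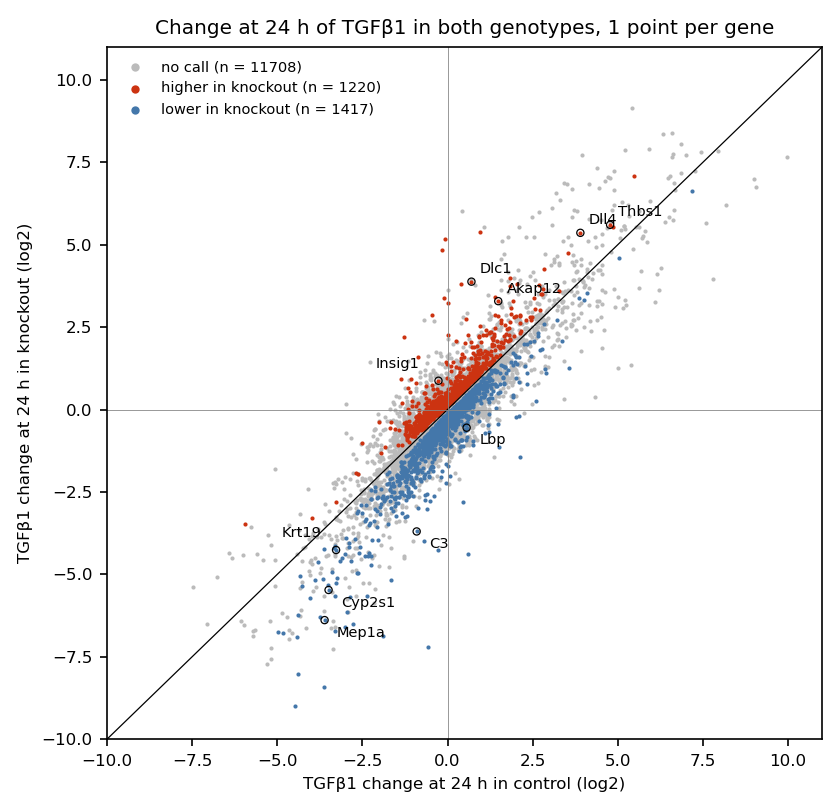
TGFβ1 change at 24 h of each tested gene in control cells (x axis, log2) against knockout cells (y axis, log2), with the line of equality and named genes circled. Red points are the 1220 genes called higher in the interaction, blue points the 1417 called lower and grey points genes with no call; most points lie along the line, and blue points at the lower left mark genes repressed further in knockout.

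Genes were also sorted by a separate control experiment, which shares no library with the interaction. NMuMG cells carrying the pLKO control vector had their own 24 h response. Among 1075 genes that TGFβ1 induced at least 2-fold there, 17.0% were higher and 9.02% lower in the PBRM1 interaction, with a median of 0.07. Among 1225 genes repressed at least 2-fold there, 14.6% were higher and 23.3% lower, with a median of -0.13. Among 6153 genes without a call there, 4.11% were higher and 5.35% lower. Over all genes tested the median interaction was -0.01.

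Dlc1, a GTPase-activating protein and tumour suppressor, had the largest interaction among the genes named as higher. Its control libraries held 17.6, 15.7 and 14.4 CPM at 0 h and 27.2, 25.4 and 25.2 CPM at 24 h. Its knockout libraries held 1.72, 2.299 and 1.24 CPM at 0 h and 28.4, 25.1 and 23.7 CPM at 24 h. Knockout cells started well below control and reached the same level at 24 h, where the groups overlapped. The interaction was 3.18 ± 0.16 (SE, adjusted p = 5.15e-24), from a change of 0.70 in control and 3.88 in knockout. Dlc1 lies at chr8:36567751-36953143 (GRCm38).

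Akap12, a scaffold that anchors protein kinase A, began lower in knockout and ended higher. Control libraries held 35.6, 33.5 and 33.1 CPM at 0 h and 92.7, 95.8 and 98.7 CPM at 24 h and knockout libraries 14.1, 14.2 and 13.6 CPM at 0 h and 134, 136 and 140.5 CPM at 24 h. The groups did not overlap at either time, and the order of the genotypes reversed between them. Its interaction was 1.80 ± 0.07 (SE, adjusted p = 9.66e-28). Lpin3, a phosphatidate phosphatase of lipid synthesis, followed the same course, from means of 5.48 to 7.96 CPM in control and 2.62 to 17.8 CPM in knockout, with an interaction of 2.22 ± 0.18 (SE, adjusted p = 3.95e-15). Olr1, a scavenger receptor of the lectin type, also crossed over, from 12.3 to 23.7 CPM in control and 4.85 to 28.2 CPM in knockout, with an interaction of 1.59 (adjusted p = 9.51e-15).

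Other genes began close together and separated after TGFβ1. Dll4, a Notch ligand, stood at 1.89, 1.302 and 1.69 CPM at 0 h and 25.5, 23.7 and 24.5 CPM at 24 h in control and at 1.72, 2.93 and 2.44 CPM at 0 h and 97.6, 101 and 92.9 CPM at 24 h in knockout. The genotypes overlapped at 0 h, and at 24 h every knockout library was far above every control library. Its interaction was 1.46 ± 0.21 (SE, adjusted p = 2.34e-07), an induction of 5.36 in knockout against 3.90 in control. Abcb1a, a multidrug efflux pump (P-glycoprotein), stood at 17.9, 20.7 and 18.4 CPM at 0 h and 17.7, 19.97 and 18.2 CPM at 24 h in control and at 20.01, 16.8 and 18.00 CPM at 0 h and 48.4, 47.6 and 46.00 CPM at 24 h in knockout. Control libraries did not separate by time (log2 -0.03, adjusted p = 0.777), while the knockout libraries at 24 h were above all others. The interaction of Abcb1a was 1.40 ± 0.10 (SE, adjusted p = 6.24e-18). Npr3, the clearance receptor for natriuretic peptides, rose from 1.97 to 6.95 CPM in control and from 1.54 to 20.97 CPM in knockout, an interaction of 1.94 (adjusted p = 1.28e-08). Siglecg, a sialic acid-binding lectin, and Ivl, involucrin of the epidermal envelope, had interactions of 1.74 and 1.36. Ccl20, a chemokine that draws CCR6-bearing cells, fell in both genotypes but less in knockout, by log2 -0.37 against -1.66. Aqp1, a water channel, had an interaction of 2.48 (adjusted p = 0.0354) that rested on a knockout level below 2 CPM at both times and did not pass in 5 of 18 alternatives.

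**Figure D2:**
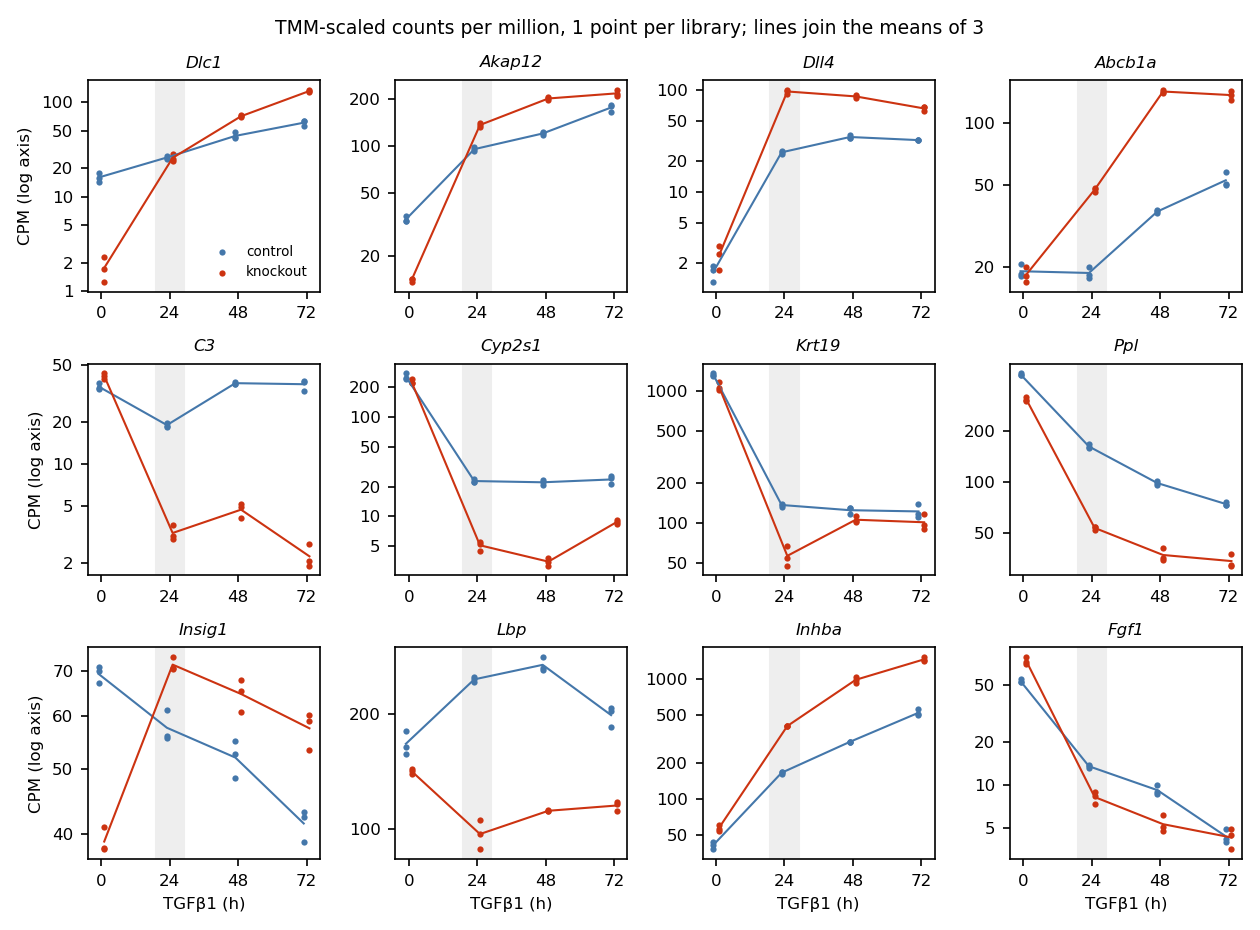
Level of 12 genes in CPM (y axis, log scale) after 0, 24, 48 and 72 h of TGFβ1 (x axis), with a point per library, lines through the group means, control in blue, knockout in red and the 24 h time shaded. Dlc1 and Akap12 start lower in knockout and reach or pass control at 24 h, Dll4, Abcb1a and Inhba separate upward, and C3, Cyp2s1, Krt19 and Ppl fall further in knockout.

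The genes with the largest interactions on the lower side fell in both genotypes and further in knockout. Of the 12 named, 11 had a negative change in control, and the exception was Prl2c3 at 0.08. C3, the central component of complement, stood at 37.7, 34.5 and 34.1 CPM at 0 h and 18.3, 18.7 and 19.6 CPM at 24 h in control. In knockout it stood at 43.9, 39.97 and 42.4 CPM at 0 h and 3.09, 2.95 and 3.695 CPM at 24 h. Knockout libraries were above control at 0 h and below every control library at 24 h. The interaction was -2.79 ± 0.13 (SE, adjusted p = 2.20e-25), from -0.91 in control and -3.70 in knockout. C3 lies at chr17:57203970-57228136 (GRCm38).

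Mep1a, the alpha subunit of the metalloprotease meprin, fell almost to 0 in knockout. Control libraries held 29.3, 30.4 and 29.7 CPM at 0 h and 2.49, 2.55 and 2.27 CPM at 24 h and knockout libraries 27.9, 27.5 and 28.5 CPM at 0 h and 0.319, 0.531 and 0.123 CPM at 24 h. The genotypes were within 3 CPM of each other at 0 h and apart at 24 h. The interaction was -2.78 ± 0.32 (SE, adjusted p = 5.46e-10). Cyp2s1, a cytochrome P450, stood at 277, 249 and 244 CPM at 0 h and 22.4, 22.2 and 23.6 CPM at 24 h in control and at 219, 243 and 219.7 CPM at 0 h and 4.52, 5.31 and 5.54 CPM at 24 h in knockout. Every library was far lower at 24 h than at 0 h, and the knockout libraries ended lowest, with an interaction of -1.98 ± 0.11 (SE, adjusted p = 1.79e-22). Serpinb5 (maspin), a serpin of normal mammary epithelium, stood at 10.8, 14.6 and 12.4 CPM at 0 h and 8.01, 11.01 and 9.56 CPM at 24 h in control and at 12.1, 11.4 and 12.5 CPM at 0 h and 2.13, 1.42 and 2.34 CPM at 24 h in knockout. Control times overlapped, and only the knockout libraries at 24 h stood apart, with an interaction of -2.21 ± 0.21 (SE, adjusted p = 1.78e-12).

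Some of these genes ended at single counts in knockout. Ttr, the thyroid hormone carrier transthyretin, went from 517 to 1 count over the 3 knockout libraries, a ratio of 460 (95% counting interval 82.2 to 18194). Its control mean fell from 14.7 to 1.21 CPM, and its interaction was -4.78 (adjusted p = 2.10e-05), which ran from -6.72 to -4.28 over the alternatives. Kif12, a kinesin motor, went from 277 to 2 counts in knockout, a ratio of 123 (33.8 to 1022), with an interaction of -3.41 (adjusted p = 2.80e-04), which ran from -6.15 without knockout 24 h replicate 2 to -2.85 without knockout 24 h replicate 1. These intervals cover counting error only. Xpnpep2, an aminopeptidase, and Upk1b, a uroplakin, had interactions of -2.35 and -2.02. Prl2c3 and Cyp2c65, at -2.09 and -2.49, belong to families of near-identical genes, and the counts may be split among copies.

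A set of 137 genes responded in opposite directions, 56 rising in knockout while falling in control and 81 falling in knockout while rising in control. Insig1, which holds the sterol sensor SCAP in the endoplasmic reticulum, stood at 70.8, 69.8 and 67.1 CPM at 0 h and 55.6, 61.1 and 56.04 CPM at 24 h in control and at 37.98, 40.96 and 38.1 CPM at 0 h and 73.3, 70.6 and 70.4 CPM at 24 h in knockout. Knockout cells started below control and ended above it, overlapping the untreated control libraries. The interaction was 1.14 ± 0.07 (SE, adjusted p = 2.33e-19). Plat (tissue plasminogen activator), Tnfaip2 (an NF-κB-responsive gene) and F2rl1 (the protease receptor PAR2) moved the same way, with interactions of 1.04, 0.98 and 0.65. Rad18, a ubiquitin ligase of DNA damage tolerance, had an interaction of 0.69. Fabp5, a fatty acid binding protein, was also in the set at 0.81, but shares its sequence with Gm6166, at 0.78, so its counts are uncertain.

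Lbp, the lipopolysaccharide binding protein, went the other way. Control libraries held 180.0, 157 and 164 CPM at 0 h and 249.7, 247 and 243 CPM at 24 h and knockout libraries 139.6, 144 and 142 CPM at 0 h and 88.2, 96.8 and 105 CPM at 24 h. Each genotype's times were apart, rising in control and falling in knockout, so that the gap between genotypes widened at 24 h. The interaction was -1.11 ± 0.06 (SE, adjusted p = 9.49e-23). Steap4, a metalloreductase, stood at 5.26, 4.34 and 5.08 CPM at 0 h and 12.4, 10.5 and 11.3 CPM at 24 h in control and at 6.25, 5.96 and 4.82 CPM at 0 h and 3.35, 3.48 and 3.88 CPM at 24 h in knockout. The genotypes overlapped at 0 h and separated at 24 h, with an interaction of -1.89 ± 0.22 (SE, adjusted p = 5.67e-10). Ncald (neurocalcin delta), Spon2 (spondin 2), Cyba (a subunit of the NADPH oxidase) and Il6ra (the interleukin 6 receptor) had interactions of -1.33, -1.13, -1.09 and -0.88.

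Genes of the TGFβ pathway itself had a median change of 0.63 in control and 0.71 in knockout. Of 29 ligands, receptors, latency proteins and SMADs tested, 3 were higher and 5 lower in the interaction, against 8.5% and 9.88% of all genes, with a median of 0.05. Over the alternatives 1 to 4 were higher and 2 to 5 lower, with medians from -0.02 to 0.06. Without knockout 0 h replicate 3 the counts were 1 and 3, and 2 were lower without control 0 h replicate 3 or knockout 0 h replicate 1. Tgfb2, a TGFβ ligand, rose from 7.696 to 18.3 CPM in control and from 5.59 to 28.5 CPM in knockout, an interaction of 1.09 ± 0.12 (SE, adjusted p = 6.45e-11). Tgfbr1, the type I receptor kinase, and Ltbp1, which tethers latent TGFβ to matrix, were lower, at -0.41 and -0.58. Smad7, the inhibitory SMAD, had an interaction of -0.01 (adjusted p = 0.936), and Pmepa1, a feedback inhibitor, of -0.01 (adjusted p = 0.91).

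Of 31 TGFβ and SMAD target genes, 6 were higher and 8 lower, against 8.5% and 9.88% of all genes. Their median was -0.01, with median changes of 1.20 in control and 1.14 in knockout. Thbs1, thrombospondin 1, an activator of latent TGFβ, stood at 69.8, 72.00 and 69.7 CPM at 0 h and 1927, 1938 and 1925 CPM at 24 h in control and at 74.5, 74.9 and 77.9 CPM at 0 h and 3735, 3641 and 3682 CPM at 24 h in knockout. The genotypes were close at 0 h without overlap, and the knockout libraries at 24 h were far above control. The interaction was 0.83 ± 0.04 (SE, adjusted p = 5.26e-25). Fn1, fibronectin, had an interaction of -0.36 (adjusted p = 4.68e-10) while its knockout mean at 24 h, with 1230.2 to 6089 CPM across times, was above that of control, with 683 to 4340.2 CPM. Tgm2, a transglutaminase that crosslinks matrix, and Itgb6, an integrin subunit that activates latent TGFβ, were lower at -0.50 and -0.45.

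Transcription factors and markers of EMT split both ways. Among all genes tested, 8.5% were higher and 9.88% lower. Of 13 EMT transcription factors, 2 were higher and 4 lower (median -0.07). Klf4, a factor of epithelial identity, and Sox9 were lower at -0.63 and -0.50, and Tcf4 and Ets1 were higher at 0.28 and 0.25. Zeb1 had an interaction of 0.09 (adjusted p = 0.366), Zeb2 of -0.11 (adjusted p = 0.413), Snai1 of -0.43 (adjusted p = 0.147) and Snai2 of 0.62 (adjusted p = 0.0528), so none of these classical E-cadherin repressors passed, though Snai2 did in 3 of 19 alternatives. Atf3, a stress-induced factor, had an interaction of -0.12 (adjusted p = 0.586). Of 17 mesenchymal markers, 4 were higher and 4 lower (median 0.08), among them Vim, vimentin, at -0.25 and Cdh2, N-cadherin, at 0.17, which lost its call without knockout 0 h replicate 3. Without that library 2 of the markers were higher. Acta2, smooth muscle actin, was near 0 CPM in untreated cells, and its interaction was 1.36 (adjusted p = 0.391), a value that ran from -0.17 without control 0 h replicate 2 to 1.93 without control 0 h replicate 1, so that its sign is not settled.

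Of 36 extracellular matrix genes, 6 were higher and 7 lower, against 8.5% and 9.88% of all genes. Their median was 0.00 (-0.04 to 0.05 over the alternatives), with median changes of 1.18 in control and 1.26 in knockout. The collagen VI chains Col6a1 and Col6a2 were lower at -0.75 (adjusted p = 3.68e-15) and -1.01 (adjusted p = 1.79e-11). Col5a1, a collagen V chain, and Lamb3, a chain of basement membrane laminin, were lower at -0.50 and -0.58. Plod2 and Loxl2, which take part in collagen crosslinking, and Timp1, a metalloprotease inhibitor, were higher at 0.42, 0.35 and 0.38.

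Epithelial genes fell further in knockout cells. Of 28 genes of epithelial adhesion and polarity tested, 18 were lower and 2 higher in the interaction, against 9.88% and 8.5% of all genes. Their median was -0.29, from a median change of -0.42 in control and -0.75 in knockout. Krt19, a luminal keratin, stood at 1322, 1357 and 1305 CPM at 0 h and 140.4, 138 and 133 CPM at 24 h in control and at 1022, 1173 and 1051 CPM at 0 h and 47.7, 54.9 and 67.4 CPM at 24 h in knockout. The knockout libraries were below control at both times, and by a larger factor at 24 h. The interaction was -0.99 ± 0.09 (SE, adjusted p = 5.58e-14). Ppl, periplakin of the cell envelope and desmosomes, stood at 427, 437 and 427 CPM at 0 h and 159.9, 167 and 159 CPM at 24 h in control and at 316, 305 and 301 CPM at 0 h and 54.00, 54.5 and 52.5 CPM at 24 h in knockout. It showed the same order without overlap, with an interaction of -1.11 ± 0.05 (SE, adjusted p = 9.03e-25).

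Cdh1, E-cadherin, the core of the adherens junction, stood at 832, 843 and 808 CPM at 0 h and 486, 481 and 478 CPM at 24 h in control and at 992, 969 and 947 CPM at 0 h and 451, 435 and 431 CPM at 24 h in knockout. Knockout libraries were above control at 0 h and below at 24 h, with an interaction of -0.36 ± 0.04 (SE, adjusted p = 9.12e-11). Crb3, of the apical Crumbs complex, was lower at -1.28. The tight junction genes Ocln and Cgn were lower at -0.64 and -0.52, and the desmosomal Dsp and Dsg2 at -0.39 and -0.30. Pkp1, a desmosomal plakophilin, and Krt7 were the 2 that were higher, at 0.68 and 0.23.

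Of 9 epithelial transcription and splicing factors, 6 were lower and 1 higher (median -0.53), against 9.88% and 8.5% of all genes. Ehf, an ETS factor of epithelia, stood at 41.7, 33.8 and 37.5 CPM at 0 h and 16.4, 15.1 and 15.1 CPM at 24 h in control and at 34.4, 31.2 and 31.5 CPM at 0 h and 5.53, 4.19 and 6.47 CPM at 24 h in knockout. The genotypes overlapped at 0 h, and at 24 h the knockout libraries were all below control, with an interaction of -1.31 ± 0.15 (SE, adjusted p = 2.38e-10). Elf3, another epithelial ETS factor, was lower at -0.68. Rbm47 and Esrp2, epithelial RNA-binding and splicing regulators, were lower at -0.59 and -0.53, and Klf5 at -0.49. The exception was Gata3, a luminal factor, at 1.38 and with group means of at most 3.52 CPM.

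**Figure D3:**
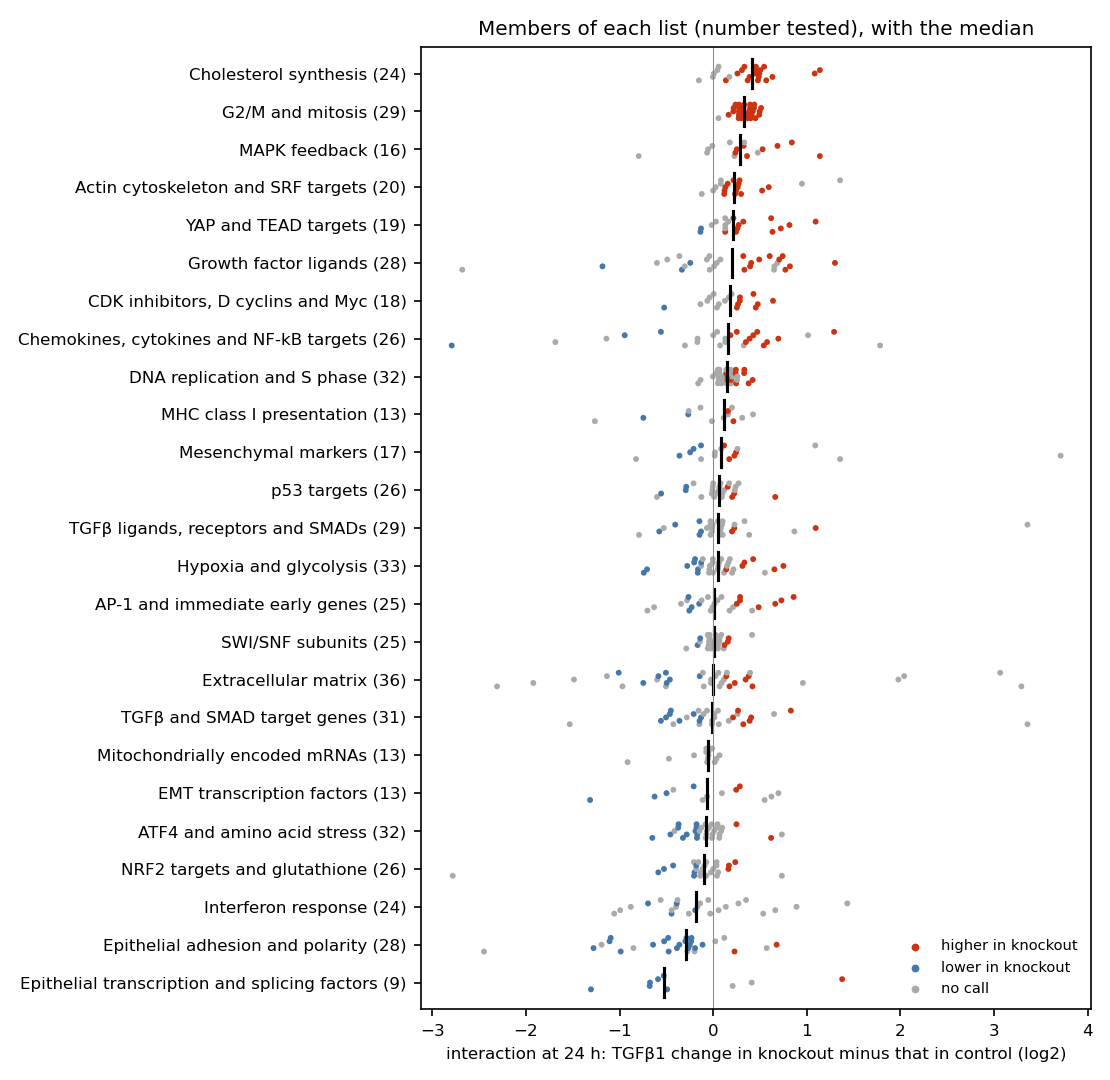
Interaction at 24 h (x axis, log2) of every tested member of 25 gene lists (rows), each point a gene (red called higher, blue lower, grey no call), with the list's median as a black bar. Members of the G2/M and cholesterol lists lie almost all to the right of 0, and those of the epithelial adhesion list mostly to the left, with medians of 0.33, 0.42 and -0.29.

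Mitotic genes fell less in knockout cells over the first 24 h. Of 29 genes of G2/M and mitosis tested, 28 were higher in the interaction and 0 lower by edgeR, against 8.5% and 9.88% of all genes. The count of lower members was 0 also at an unadjusted p under 0.05 and with DESeq2. All 29 fell in control, and 22 fell and 2 rose in knockout. The median interaction was 0.33, from median changes of -0.54 in control and -0.24 in knockout. Across the alternative settings, 25 to 28 members were higher and 0 lower. Ccnb2, a mitotic cyclin, was the member without a call, at 0.06 (adjusted p = 0.566). Before treatment, 18 of the 29 were lower in knockout than in control and 1 higher (median -0.17). At 24 h, 24 were higher and 0 lower by edgeR (median 0.19). Of all genes, 23.2% were lower and 21.9% higher in knockout at 0 h, and 23.7% and 23.1% at 24 h.

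Top2a, the topoisomerase that untangles chromosomes for mitosis, stood at 820.2, 815 and 818 CPM at 0 h and 476, 497 and 485 CPM at 24 h in control. In knockout it stood at 681, 659 and 661 CPM at 0 h and 567, 578 and 551 CPM at 24 h. Knockout cells began below control and fell less, so that their libraries were above control at 24 h. The interaction was 0.51 ± 0.04 (SE, adjusted p = 7.32e-16). Ube2c, the ubiquitin-conjugating enzyme of the anaphase-promoting complex, stood at 148, 142 and 147 CPM at 0 h and 109, 100.2 and 98.4 CPM at 24 h in control and at 112, 117 and 118 CPM at 0 h and 114, 115 and 114 CPM at 24 h in knockout. The knockout times overlapped while the control times did not, with an interaction of 0.50 ± 0.05 (SE, adjusted p = 2.85e-11). Aurkb (Aurora B kinase), Cdc25b (a phosphatase that activates CDK1) and Cenpf (a kinetochore protein) were higher at 0.49, 0.45 and 0.44.

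Of 32 genes of DNA replication and S phase, 11 were higher and 0 lower by edgeR (median 0.15), against 8.5% and 9.88% of all genes. The count of lower members was 1 at an unadjusted p under 0.05 and 0 with DESeq2. Cdc45, of the replicative helicase, was higher at 0.42 (adjusted p = 1.98e-04) and Tk1, thymidine kinase, at 0.33 (adjusted p = 6.53e-05). Before treatment, 26 of the 32 were lower in knockout than in control and 0 higher by edgeR (median -0.34). At 24 h, 17 were still lower and 1 higher (median -0.13). Of all genes, 23.2% were lower and 21.9% higher in knockout at 0 h, and 23.7% and 23.1% at 24 h. In the interaction, 8 of 18 CDK inhibitors, D cyclins and Myc genes were higher and 1 lower (median 0.18). Ccnd2 (cyclin D2) was at 0.64, Cdk6 at 0.48 and the MYC antagonist Mxd4 at -0.52.

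The promoters of mitotic genes were examined for the CHR, a short element through which late cell cycle genes are controlled, searched as TTTGAA on both strands. Windows ran from 250 bases before to 50 after the gene's start, from RefSeq (GRCm38.p6), and 10118 of 14341 symbols of tested genes had one. Of 23 mitotic genes with a window, 17 (73.9%) held the CHR, against 14.3% of all tested genes with a window, 19.4% of 943 higher genes and 13.9% of 1088 lower genes. The 3 windows below belong to mitotic genes with calls and show where the element lies, chosen after values were seen. Each is written 5′ to 3′ on the gene's strand, with the CHR in capitals (TTCAAA where it is on the other strand), and the start is base 251. In Top2a (chr11:99024140-99024439, minus strand) the element begins at bases 72 and 228, in Ube2c (chr2:164769679-164769978, plus strand) at base 222, and in Cenpf (chr1:189688037-189688336, minus strand) at base 253.
Top2a: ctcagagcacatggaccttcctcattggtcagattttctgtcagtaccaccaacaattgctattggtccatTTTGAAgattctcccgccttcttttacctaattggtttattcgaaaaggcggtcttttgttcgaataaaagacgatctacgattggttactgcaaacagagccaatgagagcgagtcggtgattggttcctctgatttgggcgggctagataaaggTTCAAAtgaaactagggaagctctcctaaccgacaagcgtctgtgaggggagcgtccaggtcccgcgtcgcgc
Ube2c: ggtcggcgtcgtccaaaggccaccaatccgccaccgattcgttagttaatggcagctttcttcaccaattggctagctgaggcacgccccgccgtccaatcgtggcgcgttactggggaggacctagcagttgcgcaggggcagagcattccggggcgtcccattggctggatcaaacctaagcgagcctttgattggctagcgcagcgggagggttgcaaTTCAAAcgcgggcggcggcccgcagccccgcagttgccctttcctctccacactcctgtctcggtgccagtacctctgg
Cenpf: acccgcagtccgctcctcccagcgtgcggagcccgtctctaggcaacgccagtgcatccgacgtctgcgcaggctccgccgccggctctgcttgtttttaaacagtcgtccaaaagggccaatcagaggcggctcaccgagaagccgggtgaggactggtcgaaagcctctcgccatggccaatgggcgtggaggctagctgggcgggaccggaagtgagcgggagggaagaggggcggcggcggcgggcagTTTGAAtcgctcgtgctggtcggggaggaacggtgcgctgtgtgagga
A match is a description of these letters and does not show that a factor binds there. An AP-1 element (TGANTCA, both strands) was in 6.9% of all windows, 9.93% of those of lower genes and 5.83% of those of higher genes.

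The mitotic difference turned over at later times. Median interactions of the 29 mitotic genes against 0 h were 0.33 at 24 h, -0.80 at 48 h and -1.28 at 72 h. These contrasts share their 0 h libraries, so the move from 24 to 72 h was tested directly, where the 0 h libraries cancel (a contrast added after values were seen). It takes the 24 h libraries with the opposite sign to the interaction at 24 h, so noise in them that raises one lowers the other. For genes and lists described by their 24 h values it is therefore not an independent test. The medians at 48 and 72 h against 0 h do not contain the 24 h libraries. In that contrast 12% of all genes were higher and 14.3% lower, so that 45.7% of calls were higher (33.8% with library totals). Of the mitotic genes, 29 of 29 were lower, with a median of -1.68. For Top2a the move was -1.69. All 32 DNA replication genes were lower as well (median -0.77). Chemokine, cytokine and NF-κB genes showed 14 lower and 0 higher of 26 (0 higher also at an unadjusted p under 0.05, median -0.34), with Ccl2, a monocyte chemokine, at -1.87. Epithelial adhesion genes were split, 11 higher and 6 lower of 28 (median 0.14), among them Krt19 at 1.01. Its interaction against 0 h was -0.99 at 24 h, 0.06 at 48 h and 0.02 at 72 h, and that of Cdh1 was -0.36, -0.03 and 0.03. The list as a whole stayed below 0 in these contrasts. At 48 h, 13 of its 28 genes were lower and 2 higher (median -0.21). At 72 h, 12 were lower and 2 higher (median -0.12). Of all genes tested, 13.5% were lower and 10.8% higher at 48 h, and 15.8% and 11.6% at 72 h. Dlc1 moved further up by 1.13 and C3 further down by -1.50.

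**Figure D4:**
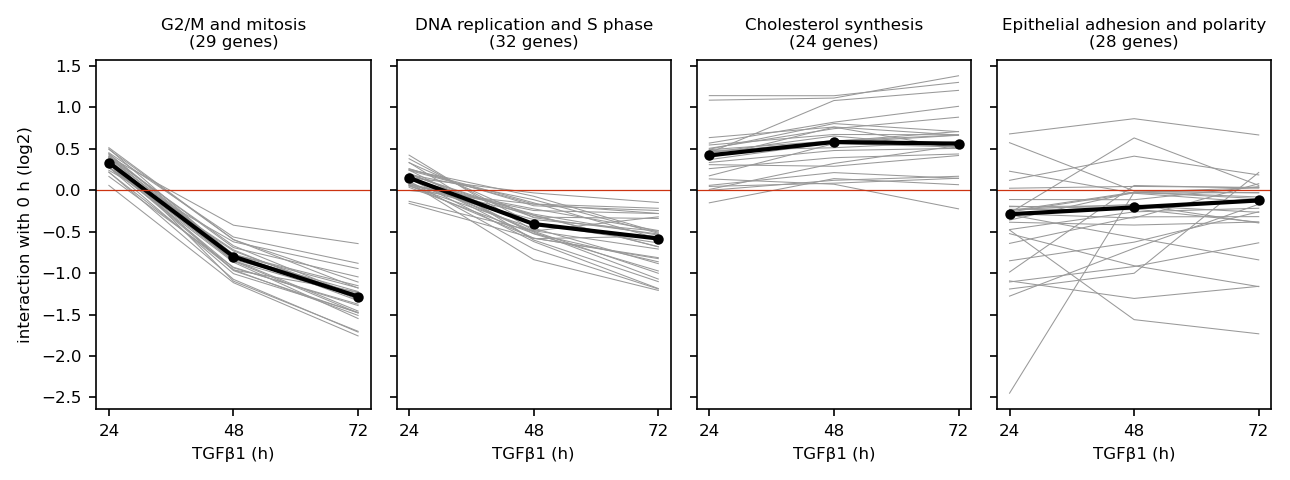
Interaction against 0 h (y axis, log2) at 24, 48 and 72 h of TGFβ1 (x axis) for each member of 4 gene lists, with the median drawn thick. Mitotic genes go from a median of 0.33 at 24 h to -1.28 at 72 h, cholesterol genes stay above 0 with medians of 0.42 to 0.58, and epithelial adhesion genes go from -0.29 towards 0.

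Genes of cholesterol synthesis and uptake had a positive interaction at 24 h in most members. Of 24 tested, 21 fell and 1 rose in control, and 7 fell and 6 rose in knockout. In the interaction 18 were higher and 0 lower by edgeR, against 8.5% and 9.88% of all genes. The count of lower members was 1 at an unadjusted p under 0.05 and 0 with DESeq2. The median was 0.42, from -0.33 in control and -0.02 in knockout. Before treatment, 21 members were lower in knockout than in control and 0 higher by edgeR (median -0.49). At 24 h, 10 were still lower in knockout and 3 higher (median -0.09). The genotypes differed at many genes, with 23.2% of all genes lower and 21.9% higher in knockout at 0 h. At 24 h these shares were 23.7% and 23.1%. In the interaction, 16 to 18 members were higher and 0 to 1 lower across the alternative settings. Hmgcs1, which makes the HMG-CoA used for sterols, stood at 284, 291 and 282 CPM at 0 h and 170.0, 159.8 and 161 CPM at 24 h in control and at 167, 163 and 166 CPM at 0 h and 139, 140.1 and 141 CPM at 24 h in knockout. Knockout libraries were below control at both times and the gap narrowed at 24 h, with an interaction of 0.57 ± 0.05 (SE, adjusted p = 2.96e-14). Fdft1 (squalene synthase) and Sqle (squalene epoxidase) were higher at 0.54 and 0.33.

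These genes are known targets of SREBP2, which binds sterol regulatory elements. The letters TCACNCCAC, searched on both strands, were in 1 of 17 cholesterol gene windows (5.88%) and in 1.41% of all windows. That window is Hmgcs1 (chr13:119690101-119690400, plus strand, RefSeq GRCm38.p6), shown for the element in capitals, which begins at base 114. The motif was chosen after values were seen.
Hmgcs1: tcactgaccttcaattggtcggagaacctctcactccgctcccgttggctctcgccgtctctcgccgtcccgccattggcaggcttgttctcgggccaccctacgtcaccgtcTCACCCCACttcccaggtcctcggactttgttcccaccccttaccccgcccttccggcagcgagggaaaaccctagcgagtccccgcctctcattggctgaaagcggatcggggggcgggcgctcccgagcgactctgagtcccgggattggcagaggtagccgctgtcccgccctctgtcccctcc

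Genes of actin and of growth factor signalling were called higher more than lower, where 8.5% of all genes were higher and 9.88% lower. Of 20 actin and SRF target genes, 13 were higher and 0 lower by edgeR, with 1 lower at an unadjusted p under 0.05 and 0 with DESeq2. Their median was 0.23, with changes of 0.82 in control and 1.02 in knockout. Csrp1, a LIM protein, and Cnn2, calponin 2, were higher at 0.59 (adjusted p = 6.48e-13) and 0.52 (adjusted p = 2.98e-12), and Tpm1, tropomyosin, at 0.30. Of 19 YAP and TEAD targets, 11 were higher and 2 lower (median 0.22), with Ankrd1 at 0.81 (adjusted p = 1.38e-22), Cyr61 (CCN1) at 0.72 (adjusted p = 1.97e-18) and Amotl2, an inhibitor of YAP, at 0.63. Before treatment, 13 of the 19 were lower in knockout than in control and 4 higher (median -0.22). At 24 h, 3 were lower and 9 higher (median 0.06). Of all genes, 23.2% were lower and 21.9% higher in knockout at 0 h, and 23.7% and 23.1% at 24 h. Of 16 genes of MAPK feedback, 8 were higher and 0 lower in the interaction by edgeR (median 0.29). The count of lower members was 1 at an unadjusted p under 0.05 and 0 with DESeq2. The RTK inhibitor Spry1 was at 0.69, the ERK phosphatases Dusp5 and Dusp6 at 0.53 and 0.36, and the ERK-dependent factor Etv4 at 0.84.

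Counts in the next lists also stand against 8.5% higher and 9.88% lower among all genes tested. Of 28 growth factor ligands, 11 were higher and 3 lower (median 0.20). Inhba, the activin A subunit, stood at 41.4, 37.9 and 44.1 CPM at 0 h and 166, 161 and 167 CPM at 24 h in control and at 61.1, 56.1 and 54.1 CPM at 0 h and 401, 404 and 407 CPM at 24 h in knockout. Knockout libraries were above control at 0 h, and the distance grew at 24 h, with an interaction of 0.82 ± 0.07 (SE, adjusted p = 2.57e-15). Hbegf, an EGF receptor ligand, and Fgf18 were higher at 0.77 (adjusted p = 2.56e-14) and 1.30 (adjusted p = 4.56e-05). Fgf1 was the lowest of those called, at -1.18 ± 0.11 (SE, adjusted p = 1.26e-12), falling from 53.2 to 13.5 CPM in control and from 73.8 to 8.197 CPM in knockout. Of 25 AP-1 and immediate early genes, 7 were higher and 4 lower (median 0.01, or -0.01 with scaling by library totals and -0.08 to 0.06 over all alternatives), with Ier3 at 0.86, Dusp1 at 0.73 and Jun at -0.26. Of 26 chemokine, cytokine and NF-κB genes, 10 were higher and 3 lower (median 0.16, and 1 to 5 lower over the alternatives), with the alarmin Il33 at 0.70, Ccl2 at 0.58 and the NF-κB inhibitor Nfkbia at 0.47 on the higher side.

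Stress and immune gene groups had medians between -0.18 and 0.11. Their counts stand against 8.5% higher and 9.88% lower among all genes tested. Of 32 ATF4 and amino acid stress genes, 2 were higher and 11 lower (median -0.08), with Phgdh, of serine synthesis, at -0.46, Atf5 at -0.65 and Nupr1, higher, at 0.62. Of 26 NRF2 and glutathione genes, 3 were higher and 6 lower (median -0.10), and 1 and 11 with scaling by library totals, and 1 was higher in 6 of the 12 settings that left out a library. Gclc, which limits glutathione synthesis, was lower at -0.53. Of 33 hypoxia and glycolysis genes, 6 were higher and 8 lower (median 0.05, and -0.03 to 0.08 over the alternatives), and of 26 p53 targets 4 were higher and 3 lower (median 0.06), or 2 and 4 with library totals, and 2 and 3 without control 0 h replicate 1, control 24 h replicate 2 or knockout 24 h replicate 1. Of 24 interferon response genes, 4 were lower and 0 higher by edgeR (median -0.18), with 0 higher also at an unadjusted p under 0.05 and with DESeq2. The RNA sensor Ifih1 was lower at -0.70. Of 13 MHC class I presentation genes, 2 were higher and 2 lower (median 0.11). The count of lower genes was 0 without control 0 h replicate 3, knockout 0 h replicate 3 or knockout 24 h replicate 3 and 1 in 7 other settings that left out a library, and the median was -0.04 without control 0 h replicate 2 and -0.05 without knockout 24 h replicate 3. SWI/SNF subunits had 3 higher and 2 lower of 25 (median 0.01), all within 0.17 of 0 among the 5 called. The 3 became 0 with library totals, without a filter, and without control 0 h replicate 1 or 2, control 24 h replicate 3, knockout 0 h replicate 2 or knockout 24 h replicate 2, and the median ran from -0.03 to 0.03. Of 13 mitochondrially encoded mRNAs, 0 were called by edgeR or DESeq2 (median -0.06), and 2 were lower at an unadjusted p under 0.05.

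The study also lowered PBRM1 in 4T1, a mouse mammary carcinoma line, with the shRNA labelled shPBRM1, and treated it with TGFβ1 for 4 d. These libraries are independent of those above, and line, method and time all differ, so the values are given side by side. In the 4T1 interaction 13.2% of all genes were higher and 15.1% lower, which is 1830 and 2088 genes. The balance turned with the scaling, to 2134 higher and 1834 lower with RLE factors and 1895 and 1599 with DESeq2, and it turned to 2084 and 1636 without a filter. Of the 1220 genes higher in NMuMG at 24 h, 1178 were tested in 4T1, and 29.8% were higher and 18.3% lower there. Of the 1417 lower genes, 1234 were tested, and 12.5% were higher and 30.5% lower. The shared calls made up 19.8% of the higher and 19.5% of the lower calls in 4T1. Cholesterol genes were higher in 23 of 24 members (median 1.01), with Hmgcs1 at 1.34 and Insig1 at 0.62. Mitotic genes were higher in 18 of 29 and lower in 0 (1 at an unadjusted p under 0.05), with a median of 0.12. DNA replication genes were higher in 16 of 32 and lower in 0 (1 at an unadjusted p under 0.05), with a median of 0.15. MAPK feedback genes were lower in 9 and higher in 2 of 16, and epithelial adhesion genes higher in 8 and lower in 5 of 28. Dlc1 was at -0.73 and Akap12 at -0.86 in 4T1, opposite in sign to NMuMG, and C3 was at -0.98.

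Knockdown of ATF3 in NMuMG cells (labelled shATF3, with pLKO as control) gave another 24 h interaction, in separate libraries. There 7.74% of genes were higher and 10.9% lower, so that 41.5% of calls were higher (28.8% with library totals). Of the genes higher in the PBRM1 interaction, 1218 were tested there, and 23.1% were higher and 15.7% lower. Of the lower genes, 1408 were tested, and 8.03% were higher and 32.0% lower. The shared calls made up 24.4% and 27.8% of the higher and lower calls there. Cholesterol genes were higher in 17 of 24 (median 0.46), while mitotic genes were lower in 17 of 29 (median -0.36) and higher in 0 (1 at an unadjusted p under 0.05). DNA replication genes went the other way from mitotic genes there. They were higher in 18 of 32 and lower in 0 (0 also at an unadjusted p under 0.05), with a median of 0.305. Dlc1 was at 1.43, Dll4 at -3.13 and C3 at -2.20 with ATF3 knockdown.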

How the data were processed

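RNA was sequenced from NMuMG cells, and the deposited tables hold raw counts for each gene, whole numbers with no scaling, per the file headers. Per the labels' protocols, total RNA was used, and a company made, sequenced and processed the libraries. According to the submitters' processing notes the tools and build were HISAT2, STAR 2.7.10a, Trim Galore 0.6.7, DESeq2, edgeR and mm10, listed with no role, so the aligner, the counter and the use of strand are not given in the sources used here, and counts of overlapping or antisense genes may mix. Symbols and coordinates are the count tables' own (GRCm38).

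All 24 libraries of the knockout experiment (0, 24, 48 and 72 h) were fitted together with edgeR 4.0.16 in R 4.3.3, with 1 coefficient per group, TMM factors and the filterByExpr filter (minimum count 10, minimum total 15), which kept 14345 of 54532 genes. Tests were two-sided quasi-likelihood tests with Benjamini-Hochberg adjustment and a threshold of 0.05. The standard error is the log2 change divided by the square root of its F. The biological coefficient of variation was 2.88%. With 3 libraries a side the smallest exact p is 0.1, hence the model across all genes. The ATF3 experiment (14983 genes, 24 libraries) and 4T1 (13854 genes, 12 libraries) were fitted alone. Every replicate pair of the 4 groups differed beyond sampling noise in a chi-square test of counts.

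The 30 gene lists, the members and the tests were chosen with earlier results of these data known. Lists are described by counts and medians, with no test. Among all genes tested in the interaction at 24 h, 8.5% were higher and 9.88% lower, with a median of -0.01. Named genes are Pbrm1, 12 EMT and TGFβ genes, the 12 per direction with the largest interaction and a group mean of at least 10 CPM, the 8 per direction with opposite changes in the genotypes, and at most 4 called members per list at 5 CPM or more. The text names a part of these; further list members were named after their values were seen. Some items are not reported here. Promoter windows are from RefSeq. The fit was tested on simulated data. Alternatives were RLE factors, library totals, no filter, DESeq2 1.42.0, a replicate block, fits of the groups compared only, leaving out each library and, added after seeing the data, at least 30 counts in each group.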

Additional observations from a re-analysis of the deposited data

Results flagged for a closer look

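The interaction tests whether the TGFβ1 change differs between the genotypes, and it passed for 1220 genes on the higher side and 1417 on the lower side at 24 h, which is why these results are set out here. The contrast from 24 to 72 h, which tests whether that difference itself moved with time, passed for 1727 genes on the higher side and 2056 on the lower side, with 29 of 29 mitotic genes among the latter. It reuses the 24 h libraries with the opposite sign, so it is not independent of the interaction at 24 h. Groups of 3 libraries are too small to look for single outlying libraries.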

How the results depend on the processing

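The interaction at 24 h gave 2637 calls. It gave 2639 with RLE factors, 2667 with library totals, 2280 without a filter (37.8% higher), 2467 with DESeq2, 2766 of 13910 genes in a fit of the 4 groups alone, and 2639 of 12131 genes where at least 30 counts in each group were required, a setting chosen after seeing the data, which lowered the genes at least 2-fold from 268 to 171. Leaving out 1 library gave 2170 to 2460, and no call was reversed under any of these settings. The replicate block gave 2754 calls. Correlations of deviations ran from -0.035 to 0.082 in 18 same-numbered pairs of libraries (median 0.037). In 36 differently numbered pairs they ran from -0.074 to 0.045 (median -0.011), and 0 pairs of either kind passed 0.1. The contrast from 24 to 72 h gave 3783 calls, 3902 with the block, 3879 with library totals, and 3370 to 3576 with a library left out. The total calls in both genotypes' changes and in pLKO, shATF3 and 4T1 stayed within 1.5 times the reported ones, though library totals moved the median gene of pLKO by -0.13. Counts of list members were recomputed for the interactions at 24 h and from 24 to 72 h, and not for 4T1 or shATF3. Of the genes under the naming rule, Pbrm1, Aqp1, Ranbp3l, Col1a1, Il11, Tfcp2l1, Smad1, Cdh2 and 12 others lost their call in some setting, Snai2 gained one in 3, and no call reversed its direction. Low counts limit Mep1a, Ttr and Kif12 in knockout cells at 24 h.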
